A study of Mus musculus with 9 samples.

Results

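Transcripts of 9 regulators of follicular helper and memory-like T cell states (Bcl6, Prdm1, Tcf7, Lef1, Tox, Tox2, Bach2, Pou2af1 and Satb1) were followed in mouse CD4+ T cells sorted by a Th17 reporter, a Foxp3 reporter or both. The 9 genes were taken by name from the 24062 genes of the count table, and all 9 were present. RNA was sequenced from 9 libraries, 3 for each sorted population. The cells came from spleens of young adult F1 males heterozygous for a transgenic GFP reporter of the Th17 lineage and for a Foxp3-IRES-mRFP knock-in, and every population carried both reporters. Naive CD4+ cells, a bead-enriched fraction in which the study still saw some Foxp3+ cells at the start, were activated with beads against CD3 and CD28 for 3 days, without antibodies that block other cytokines. SPR cells (positive for the GFP reporter only) and DP cells (positive for both reporters) were sorted from cultures given TGFβ and IL6, the Th17 condition. SPF cells (positive for the Foxp3 reporter only) were sorted from cultures given IL2 and a higher dose of TGFβ, the Treg condition. Culture and sorted population therefore cannot be told apart in any comparison with SPF, whereas SPR and DP cells shared their culture. The labels number the biological replicates 1 to 3 in each population and do not say which animals they came from.

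Follicular helper T (Tfh) cells leave the effector path under BCL6, a zinc finger repressor that is opposed by BLIMP1, the repressor encoded by Prdm1, and each represses the gene of the other. TCF1 (Tcf7) and LEF1 are DNA-binding partners of β-catenin that mark naive, memory and Tfh cells and act upstream of BCL6 in mice. TOX and TOX2 are HMG-box proteins, BACH2 restrains effector genes, OCA-B (Pou2af1) is a coactivator recruited by the octamer-binding factors OCT1 and OCT2, and SATB1 organises chromatin in thymocytes and peripheral T cells.

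Values are CPM, the share of a library's total count scaled to 1e+06, and this total ran from 1495152 in DP replicate 3 to 3759662 in SPR replicate 3, so that 1 count stood for 0.266 to 0.669 CPM. Foxp3, a gene of the sort, followed the labels, with 7.01 ± 0.542 CPM (SD, n = 3) in SPR, 100.3 ± 27 in DP and 228.2 ± 18.1 in SPF. Il17a, the signature Th17 cytokine, averaged 17.5 ± 13.2, 2.22 ± 2.37 and 0.151 ± 0.262 CPM in the same order. All 10 pan T cell markers were detected, with summed levels of 6150 to 9970 CPM per library. DP replicates 2 and 3 stood apart in mt-Rnr2, a mitochondrial ribosomal RNA, at 571.7 and 1712 CPM against 25 to 214.7 CPM in the other 7 libraries. In bulk RNA, fewer cells with a transcript and less of it per cell cannot be told apart.

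Among the regulators, the test with same-numbered libraries called 2 between DP and SPR, Pou2af1 and Bcl6. These 2 are shown by the 250 bases before their annotated starts, where the letters of STAT, octamer and AP-1 elements could be looked for. Sequences are from RefSeq (GRCm38.p6), 5′ to 3′ on the gene's strand, and capitals mark matches on either strand to TTCNNNGAA (the STAT core, which BCL6 elements resemble), ATGCAAAT (octamer), CTTTGA (TCF and LEF core), TGANTCA (AP-1 element) or TGACG (CRE core). The Pou2af1 window is chr9:51213440-51213689 on the plus strand, outside the gene. The upstream Bcl6 window is chr16:23988853-23989102 on the minus strand, outside the gene, and the internal Bcl6 window, before a second annotated start, is chr16:23981284-23981533 on the minus strand, inside the gene and free of annotated exons.
Pou2af1 window: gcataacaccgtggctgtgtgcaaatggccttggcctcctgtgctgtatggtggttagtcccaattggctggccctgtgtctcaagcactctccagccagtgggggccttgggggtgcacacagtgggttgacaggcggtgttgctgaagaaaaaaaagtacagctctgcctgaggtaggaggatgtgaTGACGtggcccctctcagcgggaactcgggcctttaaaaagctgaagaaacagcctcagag
Bcl6 upstream window: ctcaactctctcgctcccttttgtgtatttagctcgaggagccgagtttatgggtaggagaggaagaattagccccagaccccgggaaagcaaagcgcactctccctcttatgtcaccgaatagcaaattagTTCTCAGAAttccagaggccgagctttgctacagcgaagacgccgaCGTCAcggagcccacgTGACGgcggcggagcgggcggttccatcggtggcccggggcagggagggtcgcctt
Bcl6 internal window: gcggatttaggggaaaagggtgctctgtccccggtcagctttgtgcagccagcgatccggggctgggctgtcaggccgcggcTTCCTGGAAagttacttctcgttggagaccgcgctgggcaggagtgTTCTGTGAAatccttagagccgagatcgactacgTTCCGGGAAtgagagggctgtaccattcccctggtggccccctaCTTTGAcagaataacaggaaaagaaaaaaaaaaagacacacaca

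The Pou2af1 window held 1 match, to the CRE core, 61 bases before the start, and no match to the octamer letters. The upstream Bcl6 window held 1 STAT core and 2 CRE cores. The internal Bcl6 window held 3 STAT cores and 1 TCF and LEF core. Of all 32851 RefSeq windows of this length, 7.02% held a STAT core, 1.6% the octamer, 13.8% the TCF and LEF core, 6.75% the AP-1 element and 17.8% the CRE core. At least 3 STAT cores were found in 9 windows (0.0274%), which belong to 8 gene symbols, Bcl6 among them. This count was made after the matches in Bcl6 had been seen. No matched elements overlapped. Windows were at hand for 8 of the 9 genes (21 windows), and none was used for Tox. Bach2 was the other regulator with a STAT core, 140 bases before one of its starts. A match describes letters and not a bound site, and binding was not measured.

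Between SPR and SPF, Pou2af1 and Satb1 were higher and Tox was lower in SPR. These 3 of the 7 regulators that passed the filter on low counts (above 10 CPM in 1 library or more) were called by edgeR's quasi-likelihood test at an adjusted p under 0.05, where 16.7% of the 9310 genes tested were called (9.14% higher and 7.58% lower in SPR). These 3 genes were also called, in the same directions, between DP and SPF, against 13.7% of all genes (7.55% higher and 6.18% lower in DP). Both comparisons share the SPF libraries. The filter was passed by Tox only through SPF and by Pou2af1 only through SPR and DP, while Prdm1 and Tox2 did not reach it.

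Between DP and SPR, the fit over all 9 libraries called none of the 7 regulators. That fit called 1 gene of 9310, Foxp3, which is 0.0107%, with 612 genes at an unadjusted p under 0.05 (Bcl6 and Pou2af1 among them) and 44 genes, none of them a regulator, by DESeq2. Same-numbered SPR and DP libraries deviated together from their group means (r = 0.222, 0.401 and 0.407 across genes, which are not independent replicates). With the replicate number as a block, in the 6 SPR and DP libraries alone, edgeR called 324 of 9307 genes, or 3.48% (1.97% higher and 1.51% lower in DP). Bcl6 and Pou2af1 were the regulators called there, both higher in DP.

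**Figure D1:**
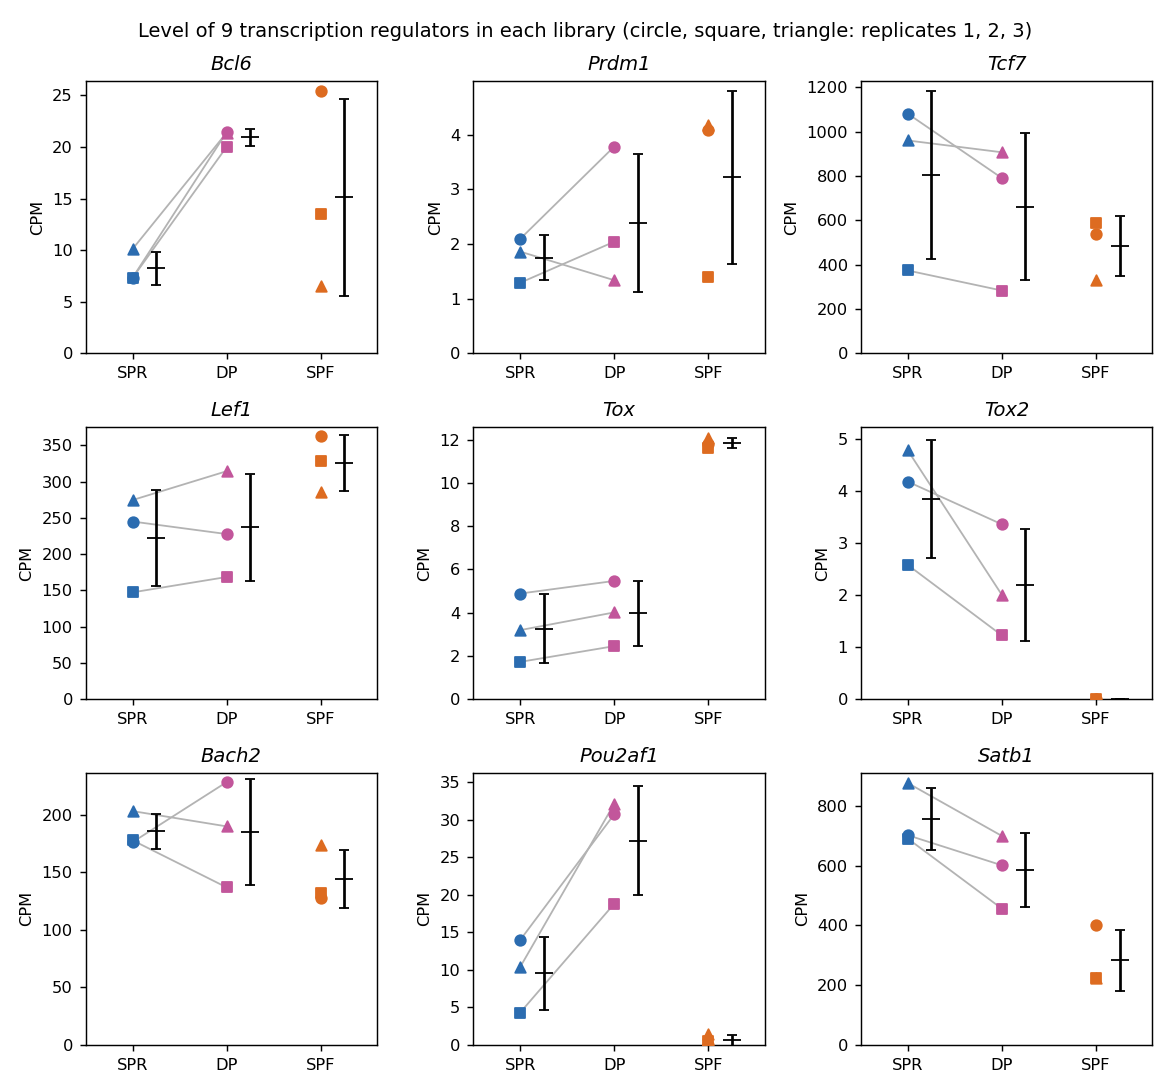
CPM of each regulator in every library, 1 panel a gene with its own axis from 0. Points are libraries (circle, square and triangle for replicates 1, 2 and 3), grey lines join same-numbered SPR and DP libraries, and black bars give the mean ± SD of 3 libraries. The DP points of Bcl6 and Pou2af1 lie above all SPR points, the SPF points of Tox lie near 12 CPM above all others, and Tox2 is at 0 in all 3 SPF libraries.

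Of the 7 regulators tested, 5 had levels that did not overlap between SPR and SPF (Lef1 and Tox lower in SPR, and Bach2, Pou2af1 and Satb1 higher), where 36.9% of the genes tested did not overlap (19.9% higher and 17.1% lower in SPR). For DP and SPF there were 3 (Tox, Pou2af1 and Satb1), against 31.6% of genes. Tox2, which was below the filter, did not overlap in either comparison. For DP and SPR there were 2, Bcl6 and Pou2af1, both higher in DP, against 14.5% of genes (9.04% higher and 5.41% lower in DP). With 3 libraries a group, the smallest two-sided p of an exact permutation test is 0.1, and the tests of single genes are therefore those of the fits across all genes.

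Bcl6, the repressor that defines the Tfh program, lies at chr16:23965052-23988852 (GRCm38, minus strand). Its level was 7.33, 7.32 and 10.1 CPM in SPR replicates 1, 2 and 3. In DP it was 21.45, 20.02 and 21.4 CPM, and in SPF 25.4, 13.5 and 6.51 CPM. The DP libraries were nearly alike and all stood above SPR, whereas the SPF libraries spread from below the lowest SPR library to above the highest DP library. The mean in DP was 21.0 ± 0.811 CPM against 8.25 ± 1.61 in SPR, a ratio of 2.54, and 15.1 ± 9.56 CPM in SPF. Within the pairs of equal number, DP exceeded SPR 2.93-fold, 2.74-fold and 2.12-fold. The log2 fold change of DP over SPR was 1.30 ± 0.257 (SE) with the block (adjusted p = 0.0204) and 1.27 ± 0.407 without it (adjusted p = 0.561). The call with the block was lost without pair 1 (1.22, adjusted p = 0.115), without pair 3 (1.44, adjusted p = 0.0593) and in DESeq2 with the block (1.31, adjusted p = 0.117), and was kept without pair 2 (1.26, adjusted p = 0.00425). The same block over all 9 libraries did not call Bcl6 (1.25, adjusted p = 0.475). Against SPF, Bcl6 was not called in SPR (−0.88 ± 0.412, adjusted p = 0.169) or in DP (0.40 ± 0.398, adjusted p = 0.531). Without SPF replicate 3, the lowest of its group, SPR was called lower than SPF (−1.25, adjusted p = 0.0197).

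Prdm1, the gene of BLIMP1 (chr10:44437177-44528501, minus strand), was near the limit of detection in every population. It was counted 6, 3 and 7 times in SPR, 9, 5 and 2 times in DP and 9, 3 and 9 times in SPF. Means were 1.75 ± 0.413 CPM in SPR, 2.39 ± 1.26 in DP and 3.22 ± 1.58 in SPF, and all 3 groups overlapped. Over summed counts, SPR stood at 0.554 of SPF (95% counting interval 0.27 to 1.11), DP at 0.784 of SPF (0.383 to 1.58) and DP at 1.42 times SPR (0.663 to 3.02). These intervals cover counting error only and treat each count as a molecule. A difference was not detectable at this depth (edgeR without the filter, adjusted p = 0.576, 0.787 and 0.975). The log2 ratio of Bcl6 to Prdm1, with 1 CPM added to each, was 1.43, 1.86 and 1.96 in SPR and 2.23, 2.79 and 3.26 in DP. In SPF it was 2.38, 2.6 and 0.53. All DP libraries lay above all SPR libraries in this ratio, as they did in Bcl6 alone, and the SPF libraries overlapped both. With Prdm1 this low and overlapping, the ratio adds no observation apart from that of Bcl6. The ratio was not tested.

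Pou2af1, which encodes the octamer coactivator OCA-B (chr9:51213708-51240080, plus strand), had the widest differences from SPF of the 7 regulators tested. It was counted 40, 10 and 39 times in SPR, or 14, 4.3 and 10.4 CPM. In DP the counts were 73, 46 and 48, or 30.7, 18.8 and 32.1 CPM. In SPF they were 0, 1 and 3, or 0, 0.465 and 1.39 CPM. No groups overlapped, with DP highest, SPR between and SPF at or near 0. Over summed counts SPR exceeded SPF 16.2-fold (95% counting interval 6.1 to 60.7), DP exceeded SPF 43-fold (16.5 to 160) and DP exceeded SPR 2.66-fold (2.04 to 3.48). These intervals cover counting error only and leave out the spread among libraries. The log2 fold change was 3.85 ± 0.719 for SPR over SPF (adjusted p = 0.00506) and 5.28 ± 0.683 for DP over SPF (adjusted p = 0.00112), which ranked 44 of 9310 genes by size. Both were called under all 15 alternatives tried. DP exceeded SPR 2.2-fold, 4.37-fold and 3.09-fold in the 3 pairs, with a log2 fold change of 1.49 ± 0.255 with the block (adjusted p = 0.0091) and 1.43 ± 0.461 without it (adjusted p = 0.563). The call with the block was kept in DESeq2 (1.54, adjusted p = 0.0177) and without pair 1 (1.79, adjusted p = 0.029) or pair 2 (1.32, adjusted p = 0.000187), and was lost without pair 3 (1.45, adjusted p = 0.061) and with the block over all 9 libraries (1.51, adjusted p = 0.311).

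Pou2af1 and Bach2 are also genes of B cells, so B cell markers were read beside them. The 13 B cell markers summed to 558 to 1520 CPM per SPF library, against 207 to 501 in DP and 141 to 397 in SPR, highest where Pou2af1 was lowest, with 6 of them at 0 throughout SPF, 5 throughout DP and 5 throughout SPR. Between DP and SPR the sum moved with Pou2af1, higher in DP in 3 of 3 pairs (501, 207 and 299 CPM against 397, 141 and 263 CPM in SPR), and replicate 2 was the lowest of SPR and of DP in both. The part of B cell RNA in the difference of Pou2af1 between DP and SPR was not tested. Most of the sum was Ighm, the immunoglobulin μ heavy chain gene, at 260.6 ± 127 CPM in SPR, 327.6 ± 149 in DP and 1003 ± 480 in SPF. The defining markers Blk and Cr2 were at 0 in all 9 libraries. Ms4a1 and Ebf1 were at 0 in the 6 DP and SPF libraries, Pax5 in SPF and Cd79a in SPR. Pou2f2, which encodes the octamer-binding partner OCT2 and is also a B cell gene, ran opposite to its coactivator, at 31.1 ± 2.16 CPM in SPR, 30.4 ± 4.41 in DP and 146.7 ± 57.7 in SPF, with log2 fold changes of −2.26 (adjusted p = 0.00064) for SPR and −2.35 (adjusted p = 0.00091) for DP against SPF. Pou2f1, which encodes OCT1, gave 0.20 and 0.22 in the same comparisons and was not called.

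**Figure D2:**
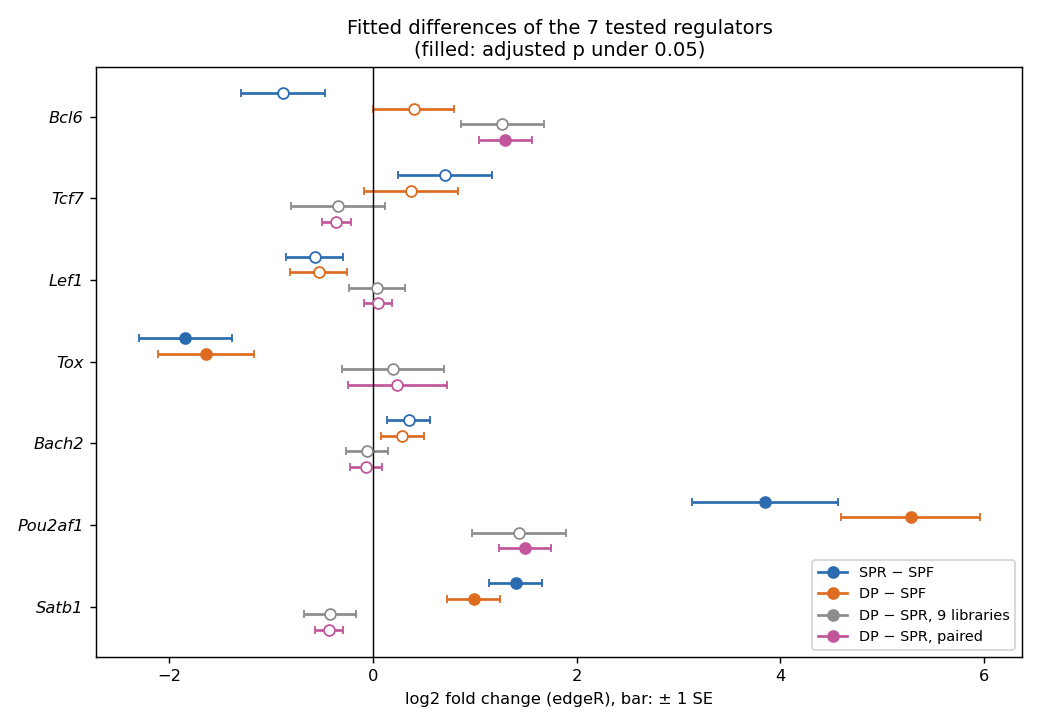
Log2 fold changes of the 7 regulators that passed the low-count filter, from edgeR, with bars of ± 1 SE and filled points where the adjusted p was under 0.05. Pou2af1 lies farthest to the right in both comparisons with SPF (3.85 and 5.28), and Bcl6 and Pou2af1 are filled between DP and SPR only with the replicate block (1.30 and 1.49).

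Tcf7, which encodes TCF1 (chr11:52252371-52283014, minus strand), spread widely among replicates. In SPR it stood at 1081, 373.6 and 960.2 CPM. In DP it stood at 790.5, 283.2 and 906.9 CPM, and in SPF at 539.9, 585.7 and 330.4 CPM. Replicate 2 was the lowest of both SPR and DP and the highest of SPF, and all groups overlapped. The means were 805 ± 378, 660.2 ± 332 and 485.3 ± 136 CPM. None of the differences was called, neither SPR over SPF (log2 fold change 0.71 ± 0.462, adjusted p = 0.321) nor DP over SPF (0.37 ± 0.461, adjusted p = 0.619). Within pairs DP was 0.731, 0.758 and 0.945 of SPR, lower in 3 of 3, as were 15.3% of all genes tested, and the fit with the block gave −0.36 ± 0.144 (adjusted p = 0.246). Without the SPR and DP libraries of replicate 2, a setting chosen after seeing the data, SPR over SPF rose to 1.05 and was called (adjusted p = 0.0397). Without the low-count filter it was called at 0.73 (adjusted p = 0.0105). The fit without the filter allowed little for the few libraries a group, so its p is not comparable with that of the main fit.

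Lef1, the gene of the related factor LEF1 (chr3:131110471-131224356, plus strand), had its highest mean in SPF. Its levels were 244.9, 147.2 and 274.5 CPM in SPR. DP held 227.6, 168.4 and 314.3 CPM, and SPF held 362.9, 328.9 and 285.3 CPM. SPR lay below SPF in every library, while DP replicate 3 reached into the SPF range. Means were 222.2 ± 66.6, 236.8 ± 73.4 and 325.7 ± 38.9 CPM. The log2 fold change was −0.57 ± 0.279 for SPR over SPF (adjusted p = 0.186) and −0.53 ± 0.28 for DP over SPF (adjusted p = 0.227), and neither was called under any of 15 alternatives. Between DP and SPR it was 0.05 ± 0.139 with the block (adjusted p = 0.931). Replicate 2 was again the lowest of SPR and of DP.

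Tox, an HMG-box regulator that CD4+ lineage cells require in the thymus (chr4:6686353-6991557, minus strand), was 3.62-fold higher in SPF than in SPR and 2.98-fold higher than in DP by group means. It stood at 4.88, 1.72 and 3.19 CPM in SPR, at 5.47, 2.45 and 4.01 in DP and at 11.8, 11.6 and 12.1 in SPF. The SPF libraries lay within 1.04-fold of each other and above all others. SPR and DP overlapped. The log2 fold change was −1.84 ± 0.46 for SPR over SPF (adjusted p = 0.0201) and −1.64 ± 0.469 for DP over SPF (adjusted p = 0.0423), on 30, 25 and 77 counts in SPR, DP and SPF. The SPR call did not hold when SPR replicate 2 (−1.57, adjusted p = 0.065), SPR replicate 3 (−1.84, adjusted p = 0.0596) or SPF replicate 2 (−1.84, adjusted p = 0.0585) was dropped. The DP call did not hold when any 1 of the 6 DP and SPF libraries was dropped (adjusted p 0.056 to 0.145). DP was higher than SPR in 3 of 3 pairs, by 1.12-fold to 1.42-fold, as were 21.7% of all genes tested, and the difference was not called with the block (0.24 ± 0.489, adjusted p = 0.893).

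Tox2, a TOX relative that promotes the Tfh program in mice (chr2:163203125-163324170, plus strand), had the opposite order. It was counted 12, 6 and 18 times in SPR (4.19, 2.58 and 4.79 CPM), 8, 3 and 3 times in DP (3.37, 1.23 and 2.01 CPM) and never in SPF, where a count of 0 over the 3 libraries allows up to 0.461 CPM (3 counts). Every SPR and DP library thus held reads and no SPF library did. Against that floor, taken over the group, Tox2 was at least 8.72-fold higher in SPR and at least 4.8-fold higher in DP, and the 95% counting intervals of these ratios, which allow for the counts of SPR and DP too, began at 6.74 and 3.41. As for Prdm1, these intervals cover counting error only. edgeR without the filter gave adjusted p = 2.45e-05 and 0.00236, on log2 fold changes of 6.28 ± 1.28 and 5.41 ± 1.41 (SE). The unadjusted p of that test, 9.81e-07 and 0.00013, are near those of a normal distribution. That fit thus allowed little for 3 libraries a group, and its p values are not comparable with those of the main fit. DP over SPR was 0.551 over summed counts (95% counting interval 0.274 to 1.05, and adjusted p = 0.906 from edgeR without the filter). DP was lower in 3 of 3 pairs, as were 15.3% of the genes that passed the filter. Tox4, another relative, gave −0.31 and 0.12 against SPF and 0.41 between DP and SPR with the block, and was not called.

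Bach2, a repressor that limits effector differentiation (chr4:32238804-32586108, plus strand), had nearly the same mean in SPR and DP. It stood at 176.2, 177.8 and 203.2 CPM in SPR, at 228.4, 136.9 and 189.9 in DP and at 127.5, 131.7 and 173.3 in SPF. SPR lay narrowly above SPF in every library and DP overlapped both. The means were 185.7 ± 15.2, 185.1 ± 46 and 144.2 ± 25.4 CPM. No comparison was called (log2 fold change 0.35 ± 0.208, adjusted p = 0.28 for SPR over SPF, and 0.29 ± 0.209, adjusted p = 0.379 for DP over SPF), nor was any under the alternatives. The difference between DP and SPR was −0.07 ± 0.156 with the block (adjusted p = 0.898).

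Satb1, the chromatin organiser (chr17:51736187-51833290, minus strand), was higher in both populations of the Th17 culture. It stood at 701.3, 690 and 875.9 CPM in SPR, 600.7, 455.6 and 698.9 in DP and 400.6, 223.8 and 223.5 in SPF. Both SPR and DP lay above SPF in every library, and DP replicate 3 lay within the SPR range. With means of 755.7 ± 104, 585.1 ± 122 and 282.6 ± 102 CPM, SPR was 2.67-fold and DP 2.07-fold above SPF. The log2 fold change was 1.40 ± 0.26 for SPR (adjusted p = 0.00484), called under all 15 alternatives, and 0.99 ± 0.258 for DP (adjusted p = 0.0303). The DP call was lost without DP replicate 1 (0.98, adjusted p = 0.0682), DP replicate 3 (0.80, adjusted p = 0.0966), SPF replicate 2 (0.85, adjusted p = 0.118) or SPF replicate 3 (0.83, adjusted p = 0.0607), and in the fit of DP and SPF alone (0.97, adjusted p = 0.0633). DP was 0.857, 0.66 and 0.798 of SPR in the 3 pairs, lower in each, as were 15.3% of all genes tested. The fit with the block gave −0.43 ± 0.14 (adjusted p = 0.144).

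Genes annotated within the span of a regulator could share its reads, since no source used here gives the strand setting of the counting. For Satb1, C230085N15Rik and 5830444F18Rik, unclassified transcripts on its strand, amounted to 7.68% and 6.42% of its mean CPM. Bach2it1, within an intron of Bach2, amounted to 4.04% of Bach2. The overlapping genes of Tcf7 and Lef1 stayed at or below 1.39% of their regulator, and Gm37419, opposite Bcl6, was counted 0 times. Prdm1 and Tox2 have no overlapping gene in this annotation.

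**Figure D3:**
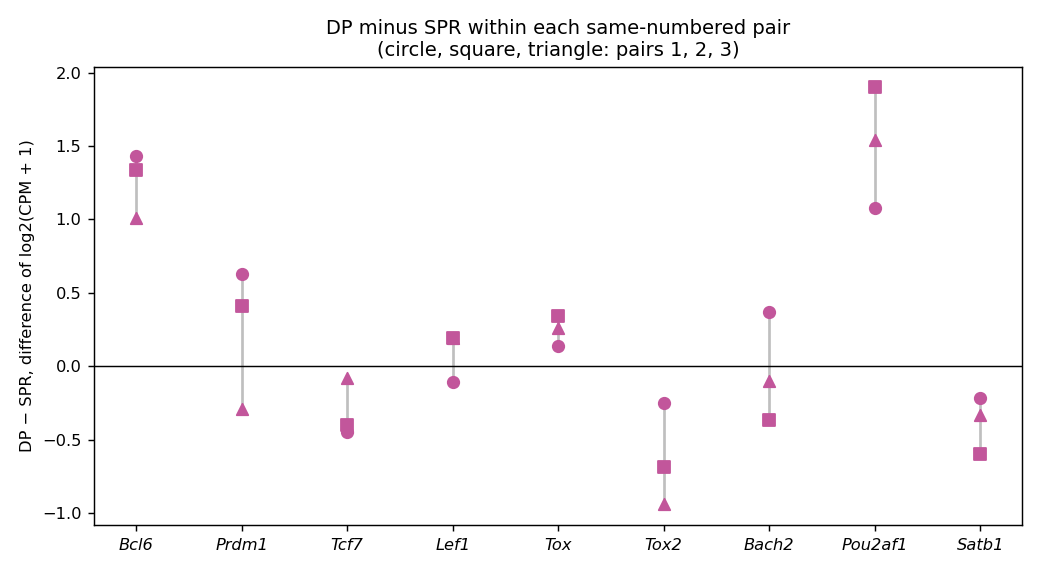
Difference of log2(CPM + 1) between the DP and the SPR library with the same replicate number, for each regulator, with circle, square and triangle for pairs 1, 2 and 3. All points of Bcl6 (1.01 to 1.43) and Pou2af1 (1.08 to 1.90) lie above 1, those of Tcf7, Tox2 and Satb1 lie below 0, and those of Prdm1, Lef1 and Bach2 fall on both sides of 0.

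The place of DP between the single positive populations was described with the study's similarity index, computed here on mean log2(CPM + 1), which is 1 where DP equals SPR and −1 where it equals SPF. Bcl6 and Pou2af1 lay outside that range. Pou2af1 had an index of 2.13 (1.69 to 2.55 when each library was left out), above both populations on the SPR side. The index of Bcl6 was −2.98, above both populations in level, but it ranged from −12.5 to −1.3, since the SPF libraries differed so much. Tox (0.704, range 0.413 to 1.06) and Tox2 (0.443, 0.219 to 0.651) lay on the SPR side of the midpoint, as did Satb1 (0.478, 0.288 to 0.709). By the study's cut-offs the indices of Tox2 and Satb1 fall in its intermediate class, and that of Tox in its SPR-like class. All 3 ranges cross the line between these classes. The indices of Tcf7 (−0.978 to 1.68), Lef1 (−0.0663 to 2.1), Bach2 (−0.0662 to 1.9) and Prdm1 (−0.776 to 1.12) crossed 0 when a library was left out and place those genes on neither side.

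Genes with the most similar pattern were sought over the 9 libraries among 9309 tested genes, by the mean absolute difference of standardized log2(CPM + 1) values, in units of SD. Standardized values compare the shape of a pattern and not the size of the change. For Pou2af1 the nearest were Tsg101 (0.167) and Emp1 (0.169). Tsg101 changed little, at 129.7 CPM in SPR, 159.5 in DP and 100.5 in SPF. Emp1, a membrane protein gene, stood at 92.3 CPM in SPR, 221.9 in DP and 15.7 in SPF. For Satb1 they were Cyp2s1 (0.146) and Dntt (0.158), the gene of the terminal transferase of early lymphocytes, at 112.3, 76.8 and 29.4 CPM. Tsc22d3 (0.125) and Ganc (0.194) were nearest to Lef1. For Bcl6 they were Zfp110 (0.199) and Ralgps2 (0.243), for Tcf7 Arhgap39 (0.261) and Map4k4 (0.263), and for Bach2 Fam216a and Trerf1 (both 0.231). Among the regulators themselves, Tox2 and Satb1 were closest (0.31), followed by Lef1 and Tox (0.47). These distances are descriptions over libraries that share 3 groups.

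More Tfh-associated genes (receptors, cytokines and regulators of Tfh cells) were higher than lower in the Th17 culture. Of 19 genes in the list 16 were tested, of which 4 were higher and 1 lower in SPR than in SPF, and 6 higher and 1 lower in DP than in SPF. Over all genes tested, 9.14% were higher and 7.58% lower in SPR, and 7.55% and 6.18% in DP. Il21, the cytokine of Tfh and Th17 cells, rose by 5.90 and 5.98 on the log2 scale (adjusted p = 0.000138 and 0.000154), from 0.609 ± 0.692 CPM in SPF to 40.2 ± 3.24 in SPR and 44.1 ± 16.8 in DP. Maf, which drives Il21, rose by 4.02 and 4.19 (adjusted p = 0.000122 and 0.000133), and Irf4 by 2.49 and 2.41 (adjusted p = 0.00142 and 0.00288). Id3 was the gene that fell, by 2.28 and 1.79. The Tfh receptor gene Cxcr5 gave 1.49 and 2.37 and Pdcd1, which encodes PD-1, 0.32 and 0.70, and neither was called by edgeR. DESeq2 called 8 genes of the list in SPR and 9 in DP, with Cxcr5 among them in DP only and Pdcd1 in neither. The median over the list was 0.57 for SPR and 0.69 for DP, against 0 and 0.01 over all genes.

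Between DP and SPR with the block, 3 of the 16 were higher in DP and none lower, against 1.97% and 1.51% of all genes. Icos, the costimulatory receptor that sustains Tfh cells, stood at 29.7 to 38.3 CPM in SPR and 51.1 to 90.3 CPM in DP (log2 fold change 0.88, adjusted p = 0.0176). Slamf6, an adhesion receptor of Tfh and memory cells, stood at 59.3, 21.1 and 80.9 CPM in SPR and 132.9, 82.5 and 143.8 CPM in DP (1.21, adjusted p = 0.00514). Il6ra, the IL6 receptor chain, gave 0.80 (adjusted p = 0.0488). DESeq2 with the block called Slamf6 alone. Without the block no gene of the list was called by edgeR or DESeq2, with 3 at an unadjusted p under 0.05. The median of the list was 0.15, against −0.01 over all genes.

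Among naive and memory-associated genes, more were lower than higher against SPF, and more were higher than lower in DP than in SPR. Against SPF, where 9.14% of all genes were higher and 7.58% lower in SPR, 1 of 14 tested genes was higher in SPR (Il7r, the IL7 receptor, 2.46, adjusted p = 0.00652) and 5 were lower (Id3, Klf2, Foxp1, Cd27 and S1pr1), with Klf2, a factor of quiescence and recirculation, at −1.89 (adjusted p = 0.0028). In DP none was higher and 3 were lower than in SPF (Id3, Klf2 and Foxp1), against 7.55% and 6.18% of all genes. Between DP and SPR with the block, 4 were higher in DP, Slamf6, Klf2 and S1pr1 among them, and 1 lower (Il7r, −0.86, adjusted p = 0.0157). Over all genes in that fit, 1.97% were higher and 1.51% lower. Klf2 gave 0.86 (adjusted p = 0.0305). DESeq2 with the block called these 5 too. List medians were −0.67 for SPR over SPF, −0.29 for DP over SPF and 0.18 for DP over SPR with the block.

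Effector-associated genes were often too low to test, with 7 of 14 tested. Of these, 5 were higher and none lower in SPR than in SPF (Il10, Gzmb, Lag3, Id2 and Ctla4), and 3 were higher in DP (Il10, Gzmb and Il2ra), where 9.14% and 7.55% of all genes were higher. Il10, a target of BLIMP1 in T cells, was lower in DP than in SPR with the block, at 7.15 to 23.7 CPM against 26.5 to 50.4 CPM (log2 fold change −1.5, adjusted p = 0.00341), while Il2ra, the IL2 receptor α chain, was higher (0.65, adjusted p = 0.0376), as was Prf1 (1.40, adjusted p = 0.0355), which DESeq2 with the block did not call. Medians were 1.76, 1.28 and −0.38.

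**Figure D4:**
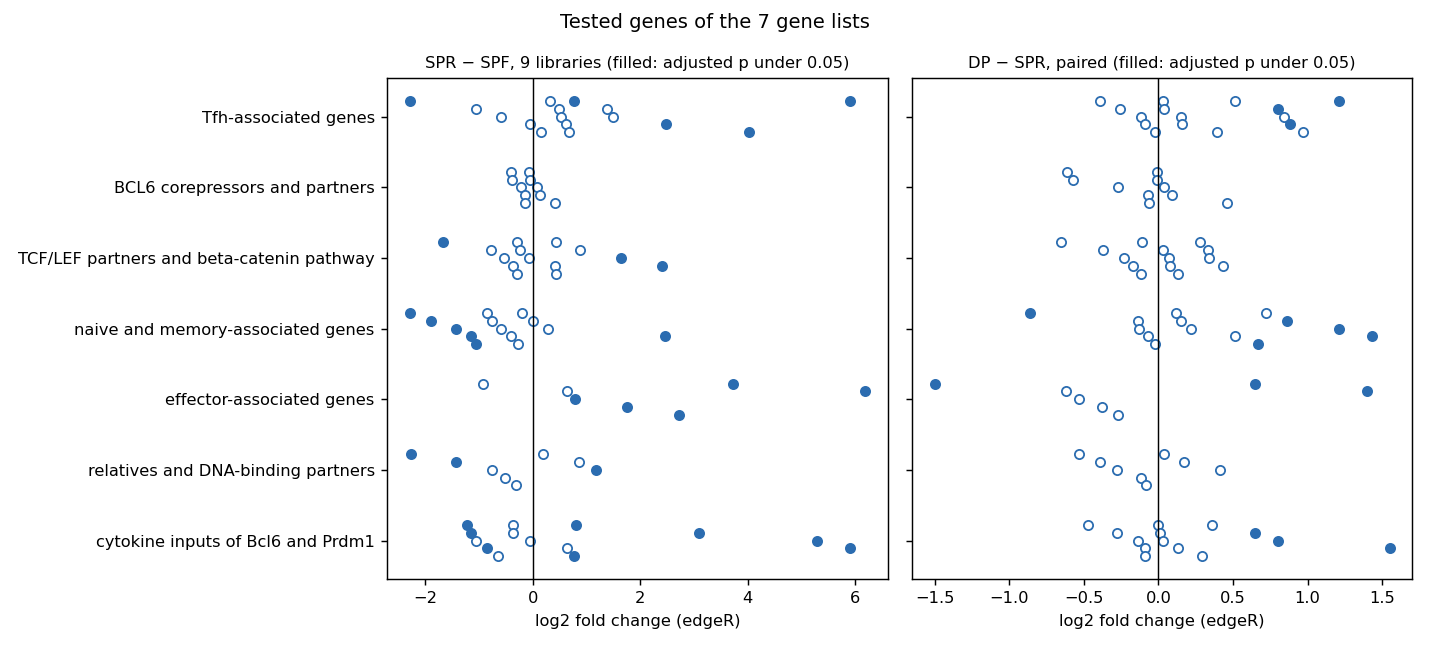
Log2 fold changes of the tested genes of 7 lists, left for SPR over SPF in the fit of 9 libraries and right for DP over SPR with the replicate block, each point a gene, filled where the adjusted p was under 0.05. None of the corepressor genes is filled, and the Tfh genes filled on the right (Icos, Il6ra and Slamf6) lie above 0.

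Proteins that work with the regulators were read from lists of partner genes. Of 10 genes of BCL6 corepressors and partners, all tested, none was called between SPR and SPF by edgeR or DESeq2, with 0 at an unadjusted p under 0.05. In DP 1 was lower than in SPF, Bcor (−0.49, adjusted p = 0.0472), where 6.18% of all genes were lower. With the block none was called between DP and SPR by either tool, with 2 at an unadjusted p under 0.05, and list medians were −0.11, −0.06 and −0.04. Of 19 TCF and LEF partners and β-catenin pathway genes, 14 were tested, of which 2 were higher and 1 lower in SPR than in SPF and 1 higher and 1 lower in DP (against 9.14% and 7.58%, and 7.55% and 6.18%, of all genes). DESeq2 called 4 in each comparison, and 8 and 6 had an unadjusted p under 0.05 in edgeR. Bcl9l, a β-catenin coactivator gene, was lower in SPR (81.5 ± 13.7 CPM) and DP (118.9 ± 48.7 CPM) than in SPF (253.6 ± 21.4 CPM), with log2 fold changes of −1.66 (adjusted p = 0.00373) and −1.17 (adjusted p = 0.024). The genes called higher than SPF were Tle2 and Jup in SPR (2.41 and 1.64) and Tcf7l1 in DP (1.13). None of the 14 was called between DP and SPR with the block by either tool, with 2 at an unadjusted p under 0.05, and medians were −0.15, 0.02 and 0.05.

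Among relatives and DNA-binding partners, 8 of 12 genes were tested, with 1 higher and 2 lower in SPR than in SPF and 3 lower in DP, where 16.7% and 13.7% of all genes were called. Beside Pou2f2, the genes were Zbtb32, a repressor gene related to Bcl6 by its BTB domain (−1.42 and −1.80), Maff, a small MAF partner of BACH proteins (1.18 in SPR), and Zbtb7b, which encodes ThPOK (−0.64 in DP, adjusted p = 0.0495). Medians were −0.41, −0.24 and, with the block, −0.10, and with the block none was called between DP and SPR by either tool, with 1 at an unadjusted p under 0.05.

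Cytokine inputs of Bcl6 and Prdm1 (receptor chains and STAT proteins of IL2, IL6, IL12 and IL21) were all tested, 14 genes, of which 5 were higher and 3 lower in SPR than in SPF and 5 higher and 2 lower in DP (against 9.14% and 7.58%, and 7.55% and 6.18%, of all genes). Beside Il21, the IL12 receptor genes Il12rb2 (5.30 and 4.83) and Il12rb1 (3.10 and 2.81) rose most. With the block, 3 were higher in DP than in SPR and none lower, against 1.97% and 1.51% of all genes. Il6st, which encodes the shared IL6 signal transducer gp130, stood at 69.4, 47.8 and 58.2 CPM in SPR and at 255.8, 125.5 and 162.5 CPM in DP (1.55, adjusted p = 0.000212), so that every DP library lay above every SPR library. The others were Il2ra and Il6ra, of which DESeq2 with the block called Il2ra. Medians were −0.21, 0.23 and 0.02.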

How the data were processed

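Bulk RNA of sorted cells was made into 3′ MARS-seq libraries and sequenced on an Illumina NextSeq instrument. As deposited, the table holds raw counts for each gene, which the authors derived from reads mapped to mm10. The submitters' notes name HTSeq, STAR, cutadapt and SAMtools. No source used here gives their versions, the annotation, the strand setting or the use of molecular identifiers. MARS-seq reads 3′ ends, so levels do not separate isoforms or starts. Left out were 1 line without a gene name, which holds the column totals, and 1 column that holds no library.

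CPM used the library totals. The quasi-likelihood test of edgeR 4.0.16 (R 4.3.3) was run on the 9310 genes above 10 CPM in 1 or more of the 9 libraries (TMM factors 0.9502 to 1.053, 6 residual and 4.93 prior degrees of freedom). A gene was called where its adjusted p (Benjamini-Hochberg) was under 0.05. The paired fit used only the 6 SPR and DP libraries and blocked on the replicate number (2 residual and 10.1 prior degrees of freedom). It rests on the labels' replicate numbers, on the shared Th17 culture and on the correlation of same-numbered libraries, which was over 0.1 in all 3 pairs for SPR and DP but not for DP and SPF (0.124, −0.0152 and −0.151) or SPR and SPF (0.0913, 0.0954 and −0.12). Unlike-numbered SPR and DP libraries all correlated negatively (−0.341 to −0.026). Deviations from a mean of 3 libraries sum to 0, so positive same-numbered values bring negative unlike-numbered ones. The negative values are therefore no separate evidence for the pairs. Unlike-numbered libraries reached 0.29 for DP and SPF and 0.232 for SPR and SPF, so a correlation of this size does not by itself show a pair. That same-numbered SPR and DP libraries came from the same animal is not stated. DESeq2 1.42.0 and the other alternatives are given at the end. The scripts were tested on simulated data. No libraries were copies of each other.

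The regulators, the 7 gene lists and the marker lists were chosen with earlier results of these data known. All regulators are described whatever their values. From each list the rule named up to 3 called genes per comparison, those of largest change that averaged 20 CPM or more in 1 group, and of each regulator at 20 CPM or more the 2 nearest genes. Tle2, Jup, Tcf7l1, Prf1, Gzmb, Lag3, Cd27, Foxp1 and S1pr1 in SPR or DP, and Il7r between DP and SPR, fall outside this rule and were named after their values were seen. The same holds for Cxcr5, Pdcd1, Pou2f1 and Tox4, which edgeR did not call. Positions are from GENCODE M21. Of the list genes, 4 were not in the table. CD8 and NK markers summed to 18.1 to 56.7 CPM per library, myeloid markers to 1.26 to 11.3 CPM and erythroid markers to 0 to 20 CPM. The microscopy, flow cytometry and suppression experiments were not analysed here. A gene of the sort and 1 list gene are not reported here.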

Additional observations from a re-analysis of the deposited data

How the results depend on the processing

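Pou2af1 against SPF (both comparisons) and Satb1 in SPR against SPF were called under all 15 alternatives, and Lef1 and Bach2 under none. With the low-count filter 9310 genes were tested, and without it 20041 (19187 with the block in SPR and DP alone). The p values without it allow little for 3 libraries a group and are not comparable with those of the main fit. Calls among the 20041 genes numbered 2479 (SPR against SPF), 2137 (DP against SPF) and 211 (DP against SPR). The regulators called then were 5 between SPR and SPF (Pou2af1, Satb1, Tcf7, Tox and Tox2) and 2 between DP and SPR (Bcl6 and Pou2af1). Tcf7 was not called between DP and SPF under any alternative. Fits of only the groups compared gave 1300 and 855 calls against SPF without the replicate block and 1022 and 430 with it, and 1769 and 1410 with the block over 9 libraries. In the fits with the block of only the groups compared, 1 regulator, Pou2af1, was called in DP, and Tox gave −1.90 (adjusted p = 0.0509) and −1.69 (adjusted p = 0.0862) and Satb1 in DP 0.99 (adjusted p = 0.0775), which without the block was already uncalled (0.97, adjusted p = 0.0633). The equal numbers of SPF and the other groups are not shown to pair libraries. Between DP and SPR, against 1 call, there were 4 with library totals alone, 44 with DESeq2, 7 with the replicate block over 9 libraries (no regulator among them), 2 in the 6 libraries without the block and 324 with it, which became 147 with DESeq2 (1 regulator), 346 with library totals and 646 without the filter (2 regulators each, the last added after seeing the data), and 120 to 447 without a pair (130, 447 and 120 without pairs 1, 2 and 3, with 1, 2 and 0 regulators). Beside Tox against SPF and Bcl6 and Pou2af1 between DP and SPR, the block changed no call of a regulator. Tox in DP gave −1.56 with library totals (adjusted p = 0.05).

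Leaving out 1 library gave 836 to 2059 calls for SPR against SPF, 553 to 1822 for DP against SPF and 1 to 6 for DP against SPR, with 2 to 4, 1 to 2 and 0 regulators. Without the SPR and DP libraries of replicate 2, chosen after seeing the data, calls against SPF were 878 and 584, and Tox in DP gave −1.36 (adjusted p = 0.101). The uncalled differences of DP over SPR changed sign for Lef1 (range without 1 library −0.24 to 0.24; −0.0026 and −0.02 with the block without pair 2 or 3, −0.19 without SPR replicate 2, −0.24 without DP replicate 3), Bach2 (range −0.22 to 0.12; 0.09 with the block without pair 2, 0.03 without SPR replicate 3, 0.12 without DP replicate 2, 0.08 without both replicate 2 libraries), Tox (range −0.11 to 0.57; −0.07 without SPR replicate 2, −0.11 without DP replicate 1) and Tcf7 (range −0.68 to 0.03; 0.03 without DP replicate 2). The index of Bcl6 was −2.71 with TMM totals and that of Pou2af1 1.75 and 2.79 with pseudocounts of 0.1 and 5, with leave-one-out ranges of −12.5 to −1.3 and 1.69 to 2.55. The mean log2 ratio of Bcl6 to Prdm1 was 2.18 and 0.97 in SPR at pseudocounts of 0.1 and 5, and 1.83 in DP at 5. The causes were not tested. Depth limits Prdm1, Tox2 and, in SPF, Pou2af1, where a single count is 0.454 CPM or more.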
